A study of Mus musculus with 12 samples.

Results

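Mouse colonocytes that lacked the C15ORF48/miR-147 locus (knockout, KO) were compared with wild-type (WT) colonocytes, both from untreated mice. Colonocytes are the epithelial cells that line the colon. The comparison takes 6 of the 12 libraries of the series, 3 KO untreated (replicates 2, 4 and 5) and 3 WT untreated (replicates 1, 2 and 3). It covers 11072 of 23790 genes, those with at least 1 RPKM (reads per kilobase of gene, scaled to the depth of the library) in 3 of the 6 libraries. The KO genotype is given as C15ORF48/miR-147 KO, with no allele, strain, sex or age in the sources used here. The other 6 libraries, 3 KO and 3 WT, come from mice treated for 3 days with 3% dextran sodium sulfate (DSS), which damages the colon lining, and serve here only as a second comparison. All libraries hold polyadenylated RNA. Nothing in the labels tells whether the libraries in a group stem from different mice, and the p-values therefore cover the variation among these samples, which may be technical. The treatment text names DSS for every sample, while the treatment field reads none for these 6, and the field and titles were followed. The untreated libraries hold 20606918 to 26839250 reads.

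AA467197 is the mouse gene of C15ORF48. Its transcript encodes a small mitochondrial protein, related to NDUFA4, and also carries the hairpin of miR-147. NDUFA4 is a subunit of cytochrome c oxidase, complex IV of the respiratory chain, which passes electrons to oxygen. The C15ORF48 protein is known to take the place of NDUFA4 in complex IV, and the 3p arm of miR-147 is known to lower NDUFA4. A microRNA pairs through its seed, bases 2 to 8, with sites in the 3′ UTRs of messenger RNAs and reduces their level or translation. The gene is induced in inflammation and is also strongly expressed in the healthy gut epithelium.

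The sequences of the hairpin and of its site in Ndufa4 are shown because the only gene called besides the deleted one carries this site. The hairpin lies on the plus strand at chr2:122640803-122640881, and its 5p arm at chr2:122640814-122640837 (RefSeq, GRCm38.p6). Capitals mark the seed of the 3p arm in the hairpin (bases 49 to 55 of 79), the seed in the 5p arm, and the match to the 3p seed in Ndufa4.
miR-147 hairpin: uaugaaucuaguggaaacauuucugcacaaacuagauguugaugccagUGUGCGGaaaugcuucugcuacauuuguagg
mmu-miR-147-5p: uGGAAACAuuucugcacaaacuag
Ndufa4 3′ UTR site: ctttcagaagccatCCGCACAAtt
The Ndufa4 stretch lies on the minus strand at chr6:11900473-11900496 (GRCm38), in exon 4 of 4 of ENSMUST00000204978.2. The site CCGCACAA spans 11900475 to 11900482 and begins at base 53 of a 3′ UTR of 243 bases. It is an 8mer match, which means that it pairs with the whole seed and is followed by an A.

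Only 2 genes were called between KO and WT, AA467197 lower and Ndufa4 higher. A gene was called at a Benjamini-Hochberg adjusted p under 0.05 in limma, fitted over 11072 genes on log2(RPKM + 1), a scale that understates changes of low genes. The 2 called genes are 0.0181% of those tested, with 0.00903% called in each direction.

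AA467197 (ENSMUSG00000033213.16, chromosome 2, 122636986 to 122641191, plus strand) had 5.67, 4.35 and 4.03 RPKM in the KO libraries, against 430, 442 and 430 RPKM in the WT libraries. These values stand for 89, 76 and 52 reads in KO and 6203, 6493 and 5851 reads in WT. Every KO library was far below every WT library, as the genotype labels have it. The log2 fold change was −6.27 (SE 0.11, limma adjusted p = 7.59e-08). Which part of the locus was removed is not given in the sources used here, so the reads left in KO cannot be placed. In WT the gene ranked 116th, 106th and 110th by level among all genes of its library.

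Ndufa4 (ENSMUSG00000029632.7, chromosome 6, 11900292 to 11907497, minus strand) had 770, 640 and 669 RPKM in KO and 228, 282 and 244 RPKM in WT. All KO libraries were above all WT libraries. The log2 fold change was 1.46 (SE 0.11, 95% interval 1.20 to 1.72, limma adjusted p = 0.00625), or 2.76-fold. By level it ranked 51st, 66th and 63rd in the KO libraries and 268th, 195th and 225th in the WT libraries. The call was lost when genes with almost no reads were tested too (adjusted p = 0.0904) and when the 12 libraries shared a single estimate of the spread (adjusted p = 0.0555), with the same fold change.

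The levels of the related transcripts, added up, were close in KO and WT. AA467197 and Ndufa4 together gave 776, 644 and 673 RPKM in KO, against 658, 725 and 674 RPKM in WT. The groups overlapped, with means of 698 ± 69.2 RPKM in KO and 685 ± 35 RPKM in WT (SD, n = 3 each). The difference of 12.2 RPKM had an exact two-sided permutation p of 0.9, where 3 libraries against 3 allow no p below 0.1. AA467197 made up 0.599% to 0.731% of the sum in KO and 61% to 65.4% in WT. Ndufa4l2, another gene of the family, had 0.0423, 0.152 and 0.154 RPKM in KO and 0.046, 0.0905 and 0 RPKM in WT, at most 4 reads in a library, and was not tested.

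**Figure D1:**
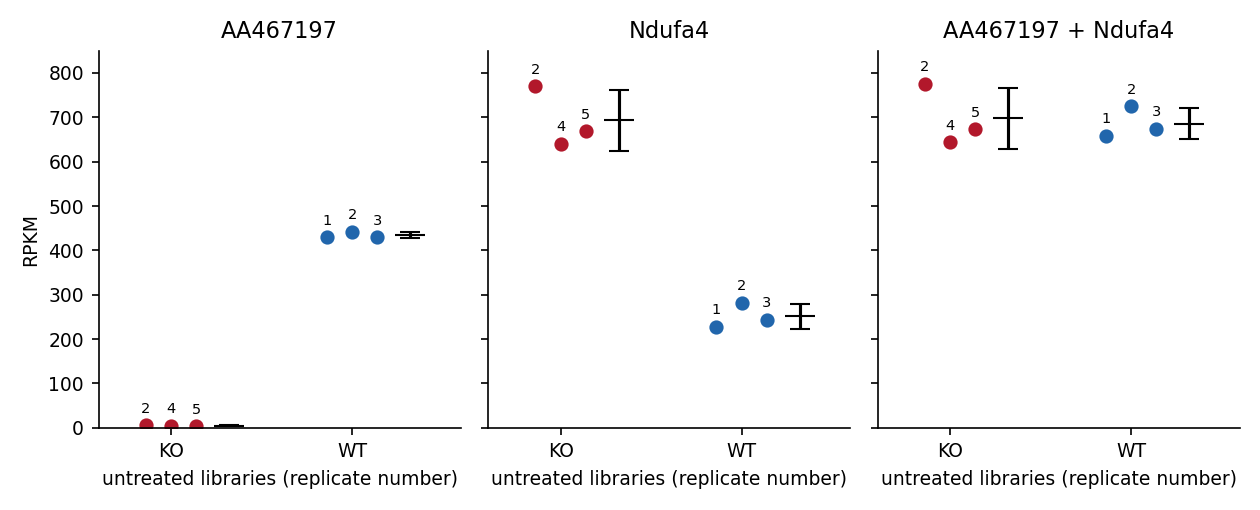
Levels in RPKM of AA467197, Ndufa4 and their sum in the 3 KO and the 3 WT untreated libraries. Points are libraries with their replicate number, and bars beside them give the mean ± SD. AA467197 was at 4.03 to 5.67 RPKM in KO and 430 to 442 in WT, Ndufa4 at 640 to 770 in KO and 228 to 282 in WT, while the sums overlapped.

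The place of Ndufa4 among the subunits of complex IV moved with genotype. Levels per gene length put it 4th of 15 in KO, between Cox6b1 (887 ± 64.1 RPKM) and Cox5a (667 ± 49.8 RPKM). In WT it was 10th of 15, between Cox7b (352 ± 22.1 RPKM) and Cox5b (137 ± 5.85 RPKM), while AA467197 was 6th. The spreads of Ndufa4 (693 ± 68.4 RPKM) and Cox5a overlap in KO. Cox4i1, a core nuclear subunit needed for assembly, was the highest in each genotype, with 1542 ± 76.2 RPKM in KO and 1502 ± 60.8 RPKM in WT. Cox7c was the lowest in each, with 3.1 ± 0.692 RPKM in KO and 2.59 ± 0.938 RPKM in WT. How reads were counted is not given, so ranks between genes may not follow the numbers of transcripts. The 13 other subunits had log2 fold changes of −0.06 to 0.21, and 0 of them were called. Their intervals all lay within 2-fold.

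Beyond the called pair, most of the transcriptome could be placed within a narrow range. On the log2(RPKM + 1) scale, the 95% interval of the change lay within 2-fold for 10930 genes (98.7%). For the remaining 142 genes it crossed or passed 2-fold, and in 110 of these the KO and WT libraries overlapped. That scale understates changes of low genes, so the 10930 can include genes beyond 2-fold in RPKM. Apoa1, with means of 0.408 RPKM in KO and 1.18 RPKM in WT, is one of them. Only AA467197 and Ndufa4 had an interval wholly beyond 2-fold. Log2 fold changes had a median of 0.01, with the 5th percentile at −0.28 and the 95th at 0.23, and 53.3% were above 0. The unadjusted p was under 0.05 for 1006 genes (9.09%), 431 higher and 575 lower in KO, and the smallest adjusted p after the called pair was 0.459. On the log2(RPKM + 1) scale a change of 2-fold or more was fitted for 22 genes, 10 higher (6 without overlap) and 12 lower (5 without overlap).

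**Figure D2:**
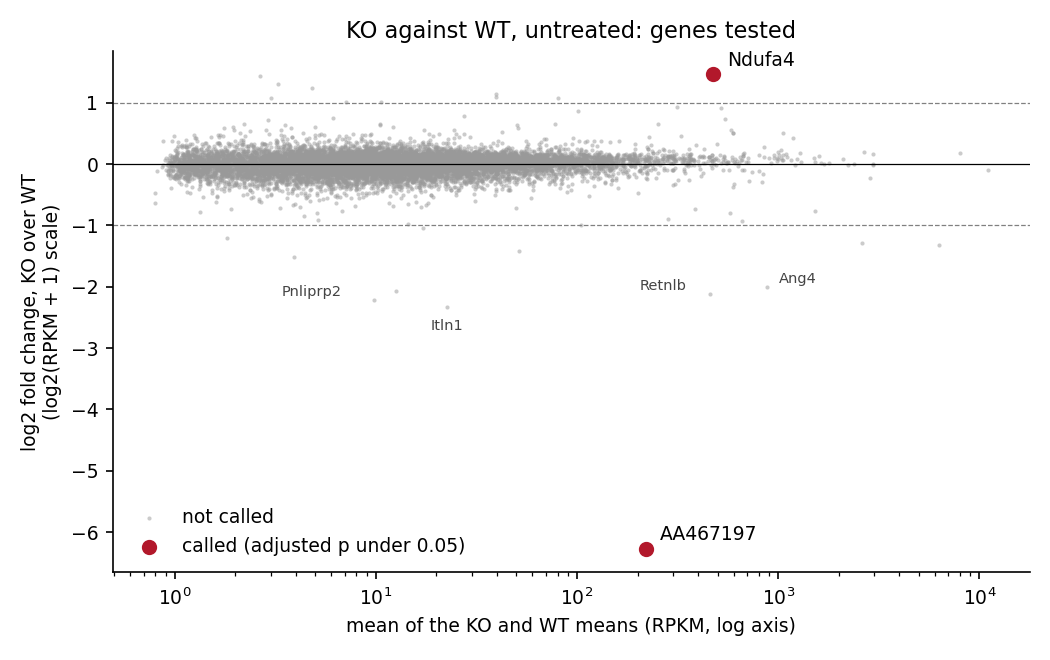
Log2 fold change, KO over WT, against the mean level in RPKM (log axis) for 11072 genes. Dashed lines mark 2-fold, red points are the 2 called genes, and Retnlb, Ang4, Itln1 and Pnliprp2 are labelled as genes with changes beyond 2-fold whose KO and WT libraries overlapped.

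KO and WT libraries differed about as much as libraries of the same genotype did among themselves. The SD of the log2 difference between a pair of libraries, over the genes tested, was 0.218 to 0.325 in the 9 pairs of a KO with a WT library (median 0.268). It was 0.209 to 0.265 in pairs of KO libraries and 0.242 to 0.29 in pairs of WT libraries. The first principal component, with 37.8% of the variance, did not order the libraries by genotype. On it KO replicates 2 (0.49) and 4 (0.49) and WT replicate 1 (0.12) were on one side, and KO replicate 5 (−0.20) and WT replicates 2 (−0.30) and 3 (−0.61) on the other. On the second, with 22.6%, KO replicates 2, 4 and 5 were at 0.05, 0.34 and 0.45. There WT replicates 1 and 2 were at −0.67 and −0.42, and WT replicate 3, at 0.25, lay among the KO libraries.

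None of the genes nearest to the threshold on the higher side was called (limma adjusted p of 0.459 to 0.470). Saa1, an acute phase protein made by the colon epithelium, had 826, 532 and 684 RPKM in KO and 419, 349 and 310 RPKM in WT, a log2 fold change of 0.91. Ly6a, a surface protein induced by interferon, had 86.5, 94.4 and 106 RPKM in KO and 57.9, 72 and 50.9 RPKM in WT (0.66). Cyp2d34, a cytochrome P450, had 67, 57.9 and 58.8 RPKM in KO and 45.2, 40.2 and 35.5 RPKM in WT (0.59). All KO libraries were above all WT libraries in these 3 genes. Sp100 (0.65) and Sp110 (0.42), nuclear body proteins of the interferon response, were at only 0.901 to 3.54 RPKM. The other genes were St8sia5 (1.31) and Selenbp2 (1.24), with changes of more than 2-fold at low levels, and Banp (0.61), Pisd-ps1 (0.55) and Fhod1 (0.45).

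On the lower side none was called either, each with a limma adjusted p of 0.459. Mgat4c, a glycosyltransferase of the family that branches N-glycans, had 132, 143 and 137 RPKM in KO and 187, 174 and 182 RPKM in WT (log2 fold change −0.39). Ugcg, which makes glucosylceramide, had 31.3, 30.5 and 34.8 RPKM in KO and 49.3, 40.9 and 47.6 RPKM in WT (−0.50). Elovl6, which elongates fatty acids, had 21.5, 21.4 and 23.4 RPKM in KO and 30.6, 28.6 and 28.8 RPKM in WT (−0.39). In each of these genes the 3 KO libraries were below the 3 WT libraries. Nipal1, a magnesium transporter, had 17.5, 18.3 and 17.9 RPKM in KO and 22.8, 23.4 and 23.7 RPKM in WT (−0.36). Zfp758 (−0.85), Rgs13 (−0.52), Lrif1 (−0.50), Arhgap5 (−0.49), Slc30a4 (−0.37) and Ubxn2a (−0.35) complete this side. Non-overlap by itself was common: 921 genes (8.32%) had all KO libraries above and 850 (7.68%) all below WT.

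Another 7 genes were called when a single library was left out. Without KO replicate 5, Zfyve9, a protein of TGF-β receptor signalling, was called (log2 fold change 1.65, limma adjusted p = 0.00625). It had 6.13, 6.62 and 1.19 RPKM in KO, against 1.22, 1.32 and 1.51 RPKM in WT, so KO replicate 5 was at the WT level. Without KO replicate 4, St8sia5, a sialyltransferase, was called (1.61, adjusted p = 0.0295), with 6.61, 2.87 and 5.88 RPKM in KO and 1.67, 1.35 and 1.14 RPKM in WT. Without WT replicate 3, Selenbp2, a selenium-binding protein, was called (1.56, adjusted p = 0.014), with 6.28, 7.9 and 6.85 RPKM in KO and 1.7, 1.72 and 4.25 RPKM in WT.

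The other 4 were called without WT replicate 1. Pnliprp2, a lipase, had 1.4, 0.934 and 1.74 RPKM in KO and 0.962, 37.2 and 16.2 RPKM in WT (−3.46 without WT replicate 1, adjusted p = 0.0264). Clps, the cofactor of pancreatic lipase, had 23, 25.2 and 24.8 RPKM in KO and 28.6, 133 and 75.1 RPKM in WT (−1.99, adjusted p = 0.0424). In both genes WT replicate 1 was near the KO level. Eno3, an enolase of glycolysis, had 144, 114 and 123 RPKM in KO and 117, 59 and 46.9 RPKM in WT (1.25, adjusted p = 0.0424). Ly6g had 60.8, 50.4 and 49.1 RPKM in KO and 40.1, 21.5 and 15.2 RPKM in WT (1.5, adjusted p = 0.0424). Ly6g is known as a surface marker of neutrophils. Of the 15 markers listed for granulocytes and mast cells, 12 stayed under 1 RPKM in every untreated library, and Cxcr2, Mpo, Elane and Mcpt4 were at 0.

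Genes with a site for miR-147-3p had a median change near 0 as a group, although the list includes Ndufa4. The longest 3′ UTR of each protein-coding gene was searched on its own strand, and each gene was counted once, under its longest match to the seed. The matches were CCGCACAA (8mer), CCGCACA (7mer-m8), CGCACAA (7mer-A1) and CGCACA (6mer), each shorter one being part of the longer. An 8mer was found in 63 of 21015 annotated 3′ UTRs (0.3%), and 40 of these genes were tested. Of the 40, 21 were above and 19 below 0, with a median log2 fold change of 0.00. KO lay above WT without overlap in 5 of them (12.5%, against 8.32% of all genes) and below in 2 (5%, against 7.68%). Apart from Ndufa4, the 39 others ran from −0.50 to 0.35, and 0 were called. Medians were −0.01 for 226 genes with a 7mer-m8, −0.03 for 96 with a 7mer-A1, −0.02 for 677 with a 6mer and 0.01 for 9594 with none. The 8mer genes have long 3′ UTRs, with a median of 2476 bases against 1037 bases for none, and longer genes had lower fold changes (given below). In the settings that left out no library, 1 of which took out the length trend, the 8mer median was −0.01 to 0.04. That of genes with no match was 0.00 to 0.02 there.

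Among the 8mer genes Ctu2, a tRNA thiolation enzyme, came next after Ndufa4, with 4.97, 4.45 and 4.5 RPKM in KO and 3.07, 3.54 and 3.71 RPKM in WT (log2 fold change 0.35, limma adjusted p = 0.497). Nmnat1, which makes NAD in the nucleus, had 5.85, 6.46 and 7.08 RPKM in KO and 5.7, 5.33 and 4.91 RPKM in WT (0.24). Exoc5, an exocyst subunit, had 15.7, 14.3 and 14.1 RPKM in KO and 20.3, 18.5 and 16.7 RPKM in WT (−0.31), with no overlap. Zfp871 was the lowest at −0.50, with overlap between the groups. The 8mer genes with the highest levels after Ndufa4 moved little: Psmc2 (0.14), Grb7 (0.02), Iars2 (−0.01), Agpat3 (0.04), Taco1 (0.08), Tmem117 (−0.08), Ick (−0.09), Cand1 (0.08) and Exoc5. Taco1 activates translation of a complex IV subunit, and its 19.6, 17.9 and 17.5 RPKM in KO lay just above the 17.4, 17.3 and 17.2 RPKM in WT. Protein levels were not measured, and a site that acts on translation alone leaves no trace in these values.

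**Figure D3:**
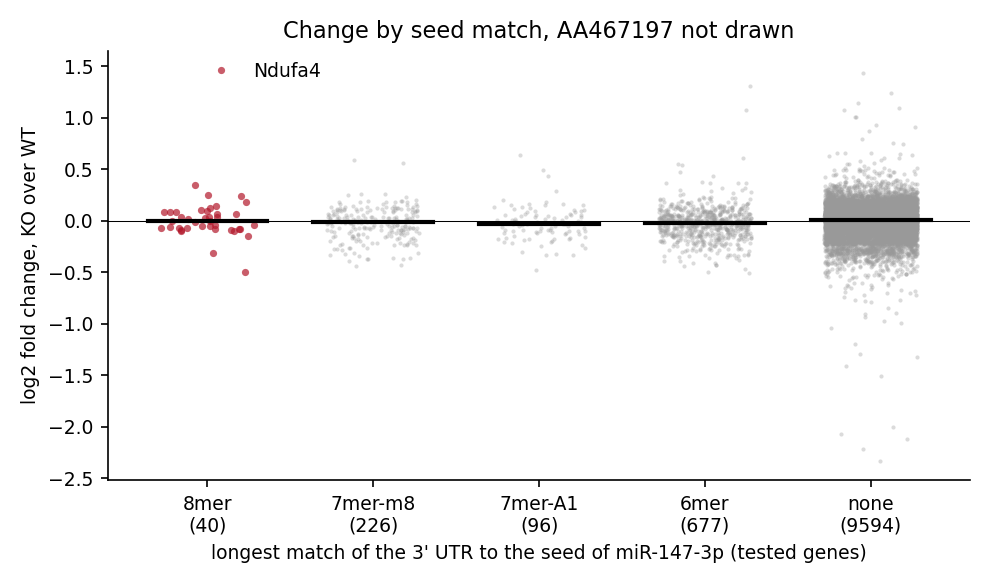
Log2 fold change, KO over WT, by the longest match of the 3′ UTR to the seed of miR-147-3p. Points are tested genes, black bars are medians, the numbers of genes stand under each type, and AA467197, with no match, is off the scale and not drawn. Ndufa4 (1.46) is apart from the other 39 genes with an 8mer, which run from −0.50 to 0.35.

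For the 5p arm, whose 8mer is TGTTTCCA, 729 tested genes had a median of −0.04 and 6732 genes with no match a median of 0.03. KO lay above WT without overlap in 3.84% of the 729 and below in 13.9%, against 8.32% and 7.68% of all genes. An 8mer for this arm is in 6.26% of annotated 3′ UTRs. These UTRs are long, with a median of 2559 bases against 750 bases for genes with no match, and the fold change ran with gene length. With the tested genes cut into 10 equal groups by length, the median was 0.06 in the shortest group and −0.10 in the longest. With this trend taken out the medians were −0.01 for the 8mer and 0.01 for no match.

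Of the genes within 250 kb of AA467197, 6 were tested and 0 called. Slc30a4, a zinc transporter 40 kb downstream, had 27.1, 26.9 and 28.1 RPKM in KO and 36.8, 35 and 35 RPKM in WT (log2 fold change −0.37), with no overlap. Spata5l1, 4.06 kb upstream, had 3.64, 3.66 and 3.42 RPKM in KO and 3.12, 3.2 and 3.17 RPKM in WT (0.13, limma adjusted p = 0.63), also without overlap. Of all genes, 16% had no overlap between KO and WT. Gatm, an enzyme of creatine synthesis 25.7 kb upstream, overlapped, with 12.7, 6.93 and 13 RPKM in KO and 13.2, 8.99 and 5.47 RPKM in WT (0.24). Bloc1s6 (−0.02), Sqor (0.07) and Slc28a2 (0.02) lie farther away and had changes near 0.

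The rest of the respiratory chain had small changes, most of them above 0. The subunits were above 0 in 32 of 35 for complex I, 11 of 13 for complexes II and III, and 13 of 13 for ATP synthase, against 53.3% of all genes, with 0 called in each list. Medians were 0.07, 0.07 and 0.10, against 0.01 for all genes. Without overlap, KO was above WT in 6 complex I, 4 complex II and III, and 4 ATP synthase genes, and below in 0, where 8.32% of all genes had KO above WT in this way. Uqcrc1, a core protein of complex III, had 369, 401 and 350 RPKM in KO and 344, 331 and 327 RPKM in WT (0.16). Ndufs7, a core subunit of complex I, had 150, 163 and 143 RPKM in KO and 137, 133 and 141 RPKM in WT (0.15). With the trend on gene length taken out, the medians were 0.02 for complex I, 0.02 for complexes II and III and 0.05 for ATP synthase, and −0.01 for complex IV against 0.05 with it. Without KO replicate 2 they were 0.02 for complex I, 0.03 for complexes II and III and 0.04 for ATP synthase, and without WT replicate 3 that of complexes II and III was 0.03 and that of complex I 0.04. Of 23 assembly factors of complex IV 17 were above 0 (median 0.03), and with the length trend taken out their median was −0.02.

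Genes that answer to mitochondrial stress, such as the targets of ATF4, were divided: 10 of 17 were above 0 and 7 below, with a median of 0.01 and 0 called. Atf4 itself had 84.8, 85.1 and 79 RPKM in KO and 83.7, 111 and 83.1 RPKM in WT (−0.15). Sesn2, a stress-induced regulator of mTORC1, had 4.94, 6.6 and 6.9 RPKM in KO and 9.64, 7.19 and 7.67 RPKM in WT (−0.36). Mitochondrial biogenesis genes were above 0 in 9 of 15 (median 0.04), with Polrmt, the mitochondrial RNA polymerase, at 0.29.

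In fuel use, glycolysis genes were above 0 in 15 of 18 and genes of butyrate and fatty acid oxidation in 11 of 24, with medians of 0.12 and −0.02 and 0 called. Pkm, the last enzyme of glycolysis, had 250, 271 and 254 RPKM in KO and 210, 208 and 206 RPKM in WT (0.31), without overlap. Eno1, an enolase, had 50.1, 58.1 and 47.5 RPKM in KO and 44.7, 42 and 42.3 RPKM in WT (0.26). Butyrate is the main fuel of colonocytes, and Pdk4, which holds back pyruvate oxidation, was the lowest gene of that list, with 2.33, 2.7 and 3.38 RPKM in KO and 7.47, 3.55 and 4.42 RPKM in WT (−0.65). NRF2 targets were above 0 in 16 of 22 (median 0.07), with G6pdx, the entry enzyme of the pentose phosphate pathway, at 0.16. Hypoxia targets were split 8 and 8 (median −0.01), with Car9 at 0.27 and Bnip3l at −0.29.

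**Figure D4:**
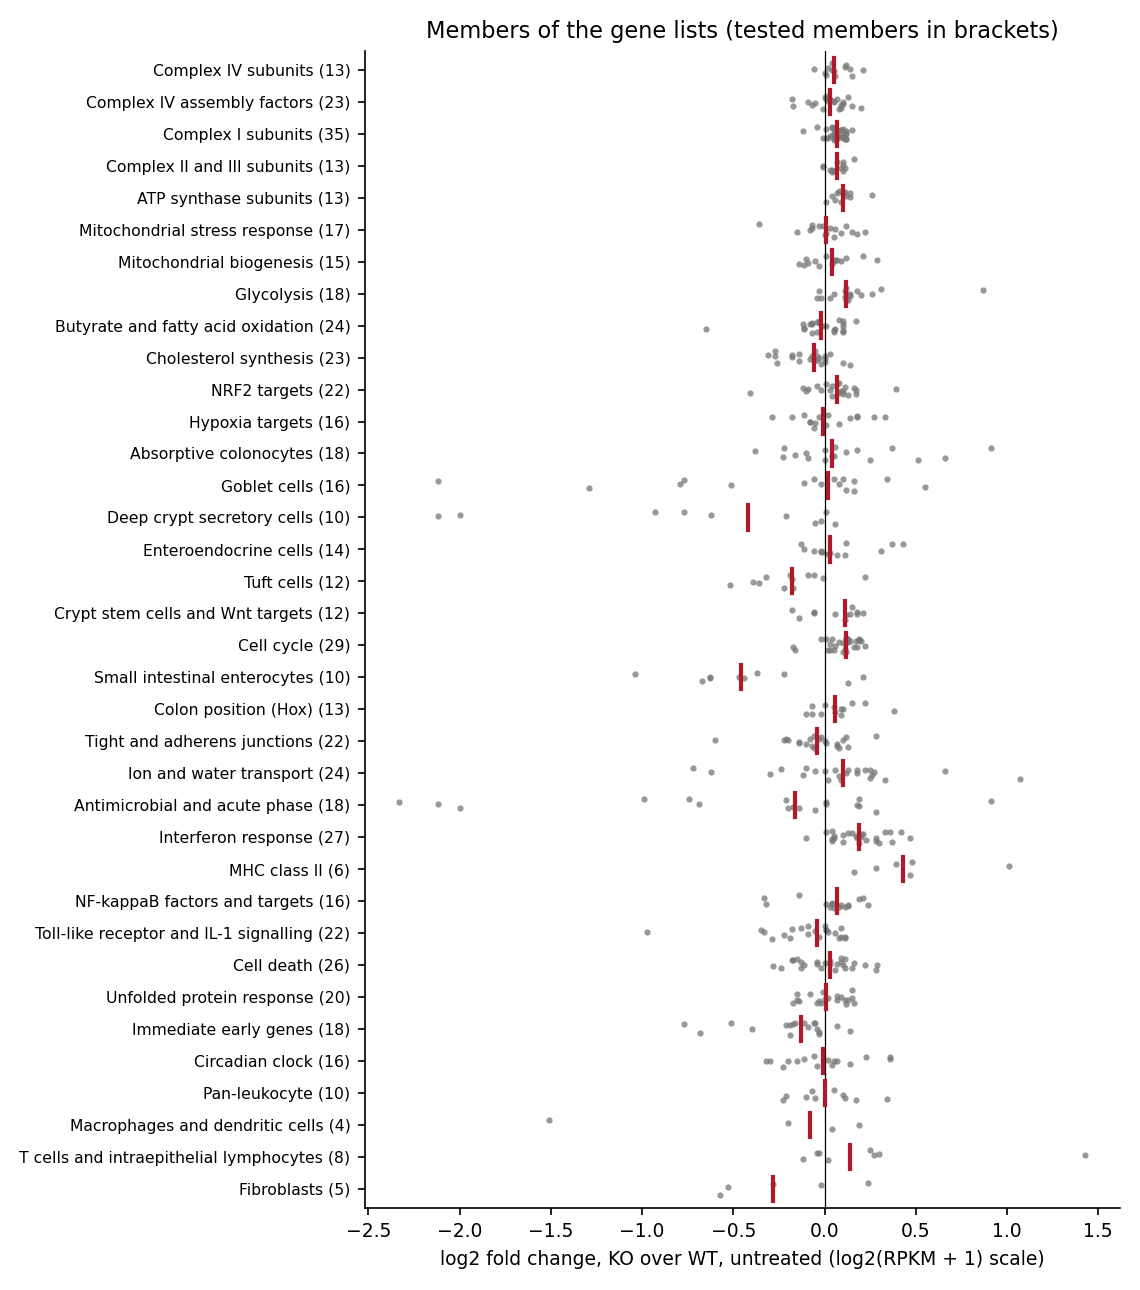
Log2 fold change, KO over WT, of the tested members of each gene list with at least 4 of them. Grey points are genes and red bars are medians. Respiratory chain lists sit between 0.03 and 0.10, deep crypt secretory cells at −0.42, small intestinal enterocytes at −0.46 and MHC class II at 0.43, with 0 members called in any list.

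Markers of the labelled cell type were abundant, and those of other cells were low. Markers of absorptive colonocytes summed to 26975 to 32615 RPKM in KO and 24377 to 34541 RPKM in WT. Pan-leukocyte genes summed to 24.2 to 34.4 RPKM in KO and 24.6 to 33.6 RPKM in WT, with 6 of 16 under 1 RPKM everywhere. No marker of B and plasma cells (0.373 to 0.692 RPKM summed in KO, 0.525 to 0.848 in WT) or of enteric neurons and glia reached the filter. Only 11 of the 17 listed B and plasma cell markers have values in the deposited data, and 15 of the 20 for T cells and intraepithelial lymphocytes. Those without values could not be judged. In bulk RNA fewer cells of a type and less RNA per cell cannot be told apart.

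Most markers of other cells overlapped between the genotypes, and the values below moved at low levels; their part in the other results was not tested. Fibroblast genes were high in WT replicate 3 alone: Dcn had 2.54, 1.29 and 3.07 RPKM in KO and 1.1, 1.08 and 23.6 RPKM in WT, a log2 fold change of −0.57 that was 0.62 without that library. Gzma, a protease of cytotoxic lymphocytes, had 3.15, 2.16 and 8.06 RPKM in KO and 0.403, 0.693 and 1.55 RPKM in WT (1.43, limma adjusted p = 0.497), while Cd3d, Cd7 and Nkg7 overlapped. Mrc1, the mannose receptor of macrophages, had 0.207, 3.02 and 2.01 RPKM in KO and 7.68, 5.93 and 4.61 RPKM in WT (−1.51, adjusted p = 0.497), while C1qa (−0.20), Tyrobp (0.04) and Lyz2 (0.19) overlapped. Siglecf, a lectin listed here with granulocytes and mast cells, was at 0.942 to 1.5 RPKM in KO and 1.68 to 1.74 RPKM in WT (−0.28). Which cells its reads came from was not tested.

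Among epithelial lineages, markers of absorptive colonocytes were above 0 in 12 of 18 (median 0.04). Car4, a carbonic anhydrase of surface cells, had 647, 659 and 794 RPKM in KO and 560, 456 and 457 RPKM in WT (0.51), without overlap. Aqp8, a water channel, had 356, 241 and 316 RPKM in KO and 296, 168 and 137 RPKM in WT (0.66), where WT replicate 1 was within the KO range. Other markers lay below 0, all with overlap: Emp1, an epithelial membrane protein, had 456, 592 and 500 RPKM in KO and 826, 511 and 707 RPKM in WT (−0.38), and Mxd1 (−0.23), Cyp2c55 (−0.22), Muc3 (−0.16), Car1 (−0.10) and Krt20 (−0.09) lay nearer to 0. Atp12a, a colonic proton and potassium pump, had 130, 116 and 77.1 RPKM in KO and 84.2, 39.8 and 36 RPKM in WT (1.07), again with WT replicate 1 within the KO range. Scnn1a, the α subunit of the epithelial sodium channel, had 63.1, 55.1 and 58 RPKM in KO and 50.8, 50.4 and 49.3 RPKM in WT (0.22), without overlap. Ion and water transport genes as a list were above 0 in 16 of 24 (median 0.10), with 0 called. Sgk1, a kinase that activates sodium transport, was the lowest of them at −0.72, with 33.7, 33.8 and 34.8 RPKM in KO and 115, 51.8 and 30.3 RPKM in WT.

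The secretory lineages gave mixed values. Goblet cell markers were split 8 and 8 (median 0.02, and −0.16 without WT replicate 1). Muc2, the main mucin, had 540, 472 and 833 RPKM in KO and 170, 351 and 1128 RPKM in WT (0.55), and its change was −0.08 without WT replicate 1 and 1.28 without WT replicate 3. Spdef, a goblet cell transcription factor, had 39.9, 46.4 and 41 RPKM in KO and 24.6, 37.7 and 39.3 RPKM in WT (0.34). Spink4 had 1330, 776 and 1279 RPKM in KO and 1405, 2462 and 1905 RPKM in WT (−0.77). Markers of deep crypt secretory cells, the supporting cells at the base of the colon crypt, were below 0 in 8 of 10 (median −0.42), of which 4 did not overlap, where 7.68% of all genes had KO below WT in this way. Reg4, which marks them, had 555, 399 and 403 RPKM in KO and 753, 1082 and 756 RPKM in WT (−0.93), and Mmp7 was at −0.62. Kit (0.06), Cd44 (0.01), Agr2 (−0.02) and Dll1 (−0.05) of the same list were near 0 and overlapped. Enteroendocrine markers were above 0 in 8 of 14 (median 0.03), with the hormones Cck (0.31) and Pyy (0.43) above and Gcg (−0.11) below. Tuft cell markers were above 0 in 1 of 12 (median −0.18), with a median of −0.10 without KO replicate 2, −0.09 without WT replicate 3 and −0.30 without WT replicate 1.

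Stem cell and proliferation genes had small positive medians that moved with single libraries. No member was above WT without overlap, against 8.32% of all genes. Crypt stem cell and Wnt target genes were above 0 in 8 of 12 (median 0.11, and 0.02 without WT replicate 1). Sox9, a crypt factor, was the one without overlap, at −0.14, where 7.68% of all genes had KO below WT in this way. Cell cycle genes were above 0 in 26 of 29 (median 0.12), 0 without overlap, against 16% of all genes. Their median was 0.02 without KO replicate 2, 0.02 without WT replicate 3, 0.05 without WT replicate 1 and 0.24 without WT replicate 2. Mcm7, a subunit of the replicative helicase, had 11.1, 9.79 and 7.74 RPKM in KO and 6.87, 9.1 and 8.01 RPKM in WT (0.22). Markers of small intestinal enterocytes were below 0 in 8 of 10 (median −0.46), 5 of them without overlap (7.68% of all genes), and 1 was above WT without overlap (8.32% of all genes). That one was Slc5a1, a glucose transporter, with 79.3, 92.4 and 90 RPKM in KO and 75.2, 71.4 and 78.2 RPKM in WT (0.21). Fabp6, an ileal bile acid carrier, had 11.5, 10.9 and 9.44 RPKM in KO and 19.2, 33.9 and 18.4 RPKM in WT (−1.04), and Anpep, an intestinal aminopeptidase, was at −0.67. Apoa1, also below WT without overlap, was at only 0.289 to 1.46 RPKM. The median of this enterocyte list was −0.61 to −0.32 without a library and −0.64 to −0.29 in the other settings. It moved by more than 1 SD in 8 of 19 settings.

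Defence genes differed by class. Interferon response genes were above 0 in 26 of 27 (median 0.19), with 4 above WT without overlap (8.32% of all genes) and 0 called. The median was 0.33 without KO replicate 2 and 0.09 without KO replicate 5. Psmb9, an immunoproteasome subunit, had 23.3, 25.7 and 26 RPKM in KO and 22, 18.7 and 19.5 RPKM in WT (0.30). Irf1, an interferon-induced transcription factor, had 45.4, 51.8 and 46 RPKM in KO and 41.6, 40.5 and 41.8 RPKM in WT (0.20). Isg15 (0.47) was high in KO replicate 5 alone, with 6.74, 8.71 and 16.3 RPKM in KO and 6.22, 5.94 and 8.71 RPKM in WT. The 6 MHC class II genes were all above 0 (median 0.43) and all overlapped, with KO replicate 4 the highest library in each and at least 1 other KO library within the WT range. The invariant chain Cd74 stood at 10.3, 31.1 and 5.09 RPKM in KO and 6.9, 3.54 and 6.62 RPKM in WT (1.01), and without KO replicate 4 its change was 0.35 and the median of the list 0.09.

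Genes of NF-κB signalling were above 0 in 13 of 16 (median 0.07), with Nfkb2 at 0.21 and Rel at −0.32. In the Toll-like receptor and IL-1 list 13 of 22 were below 0 (median −0.04), 5 of them without overlap, against 7.68% of all genes. Il1r1, the IL-1 receptor, had 4.65, 6.1 and 5.73 RPKM in KO and 6.64, 6.95 and 7.16 RPKM in WT (−0.29). Wdfy1, an adaptor of TLR3 and TLR4 signalling, had 13.3, 3.35 and 14.3 RPKM in KO and 15.7, 25.1 and 15.3 RPKM in WT (−0.97). KO replicate 4 was far below the other 5 libraries for this gene, and without it the change was −0.38. Under DSS Wdfy1 was called, with 5.77, 3.56 and 3.51 RPKM in KO and 15.7, 24.4 and 23.8 RPKM in WT (−2.08, limma adjusted p = 0.0221). The difference between its changes under DSS and untreated was −1.11 and was not called (limma adjusted p = 0.301). Immediate early genes, which respond within minutes to stimuli, were below 0 in 16 of 18 (median −0.13), with 4 below WT without overlap, again against 7.68% of all genes. Their median was −0.05 without WT replicate 2. Atf3 had 9.63, 8.39 and 8.72 RPKM in KO and 17.3, 19 and 9.81 RPKM in WT (−0.68), and Egr1 was high in WT replicate 2 alone (2.3, 6.05 and 2.62 RPKM in KO, 3.16, 23.5 and 3.12 RPKM in WT).

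Some genes varied widely among libraries of the same genotype. The 10 with the largest spread among libraries of a genotype, at a mean of 10 RPKM or more, were Ang4, Pla2g4c, Itln1, Retnlb, Mptx1, Clca1, Fcgbp, Reg3b, Muc2 and Reg3g. They include goblet cell products and antimicrobial proteins. They were picked for this spread, which works against a call, and 0 of them were called. Ang4, an antimicrobial ribonuclease, had 80.2, 99.2 and 532 RPKM in KO and 64.7, 3144 and 1347 RPKM in WT (−2.0, SE 1.34). Mptx1, a pentraxin of the gut mucosa, had 2336, 1835 and 4788 RPKM in KO and 1949, 18037 and 9069 RPKM in WT (−1.32). Retnlb, a goblet cell protein that acts on bacteria, had 88.4, 75.7 and 213 RPKM in KO and 106, 1537 and 731 RPKM in WT (−2.12). In these 3 genes, WT replicates 2 and 3 were highest, KO replicate 5 came next, and WT replicate 1 lay with KO replicates 2 and 4. Itln1, a lectin that binds microbial sugars, had the same order at lower levels, with 1.47, 2.19 and 7.67 RPKM in KO and 1.64, 85.3 and 37.3 RPKM in WT (−2.33). Muc2 and the Reg3 lectins did not follow it: Reg3g had 39, 44.7 and 126 RPKM in KO and 134, 223 and 59.8 RPKM in WT (−0.99). Without WT replicate 1 the change of Ang4 was −3.66, and across the 6 libraries left out in turn it ran from −3.66 to −0.87.

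**Figure D5:**
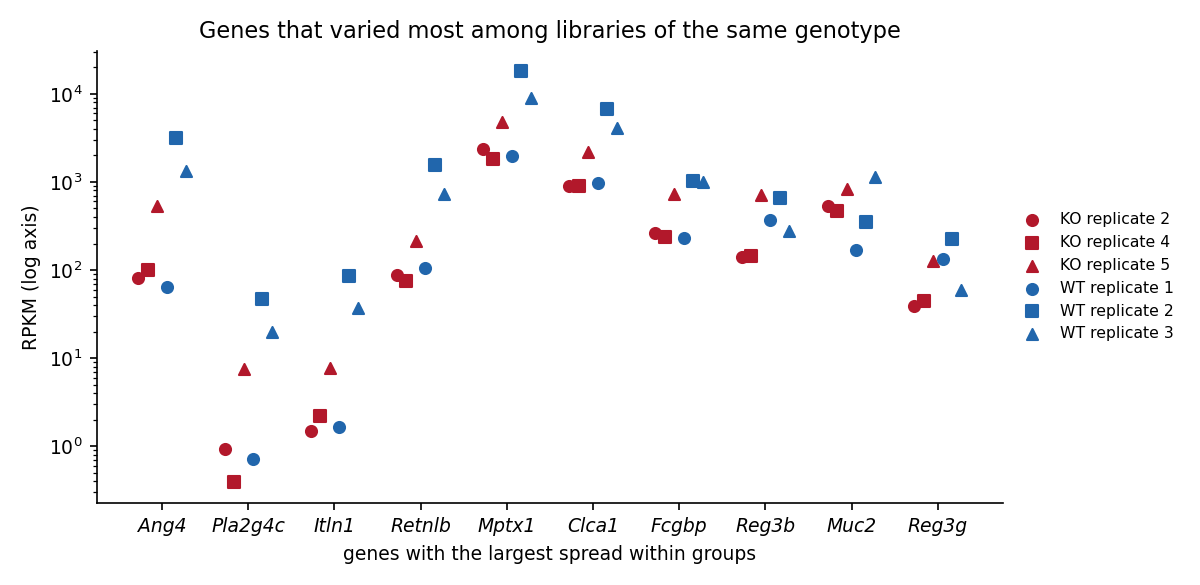
Levels in RPKM (log axis) of the 10 genes with the largest spread within groups, in the 3 KO (red) and the 3 WT (blue) untreated libraries. From Ang4 to Fcgbp, WT replicates 2 and 3 are highest and KO replicate 5 is next, while WT replicate 1 lies near KO replicates 2 and 4.

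Under DSS the same genotypes differed at more genes, with larger spread. There 84 of 10990 genes (0.764%) were called. On the log2(RPKM + 1) scale the median within-group SD was 0.19 against 0.12 in untreated libraries, and the interval lay within 2-fold for 92.7% of genes. Both genes called in untreated libraries were among the 84, and all 84 were tested in untreated libraries. The 49 called higher under DSS had a median of 1.03 there and of −0.21 untreated, where 11 were above 0. The 35 called lower had a median of −0.98 under DSS and 0.12 untreated, where 7 were below 0. Ndufa4 had 1357, 760 and 888 RPKM in KO and 301, 244 and 364 RPKM in WT under DSS (log2 fold change 1.70). The sum of Ndufa4 and AA467197 there was 1364, 767 and 897 RPKM in KO and 704, 614 and 880 RPKM in WT, with means of 1010 ± 314 RPKM in KO and 733 ± 135 RPKM in WT (SD, n = 3 each), and the groups overlapped. The difference between the change of Ndufa4 under DSS and untreated was 0.23 (SE 0.29, limma adjusted p = 0.688), and that of AA467197 was 0.64 (SE 0.21, adjusted p = 0.129).

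The difference between the KO against WT changes under DSS and untreated was tested over the 12 libraries and called for 158 of 11306 genes (1.4%). This count rested on single libraries: it was 1 without KO untreated replicate 2, KO untreated replicate 5 or WT DSS replicate 1, 2 without KO DSS replicate 3, WT untreated replicate 3 or WT DSS replicate 2, and 4 without KO untreated replicate 4. It was 43 without WT untreated replicate 1, 39 without WT untreated replicate 2, and larger when KO DSS replicate 1 (433) or WT DSS replicate 3 (300) was left out. Each change was taken within its own deposited table, and treatment cannot be told apart from a difference between the batches of libraries.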

How the data were processed

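RNA-seq libraries of polyadenylated RNA were made with a stranded kit, per the labels. TopHat2 2.1.1 and edgeR 3.30.3 are named in the submitters' processing notes, beside the genome names GRCm38 and mm10. How reads were counted, and on which annotation, is not given in the sources used here. The authors deposited RPKM for each library, per the file headers, in separate tables for untreated and DSS mice, each scaled on its own. The deposited fold changes and p-values were not used. Of 23794 gene lines, 26 had names turned into dates by a spreadsheet, and 4 of these that were not unique were left out. Per-sample columns left unused numbered 0. Values of a gene are whole multiples of 1 read, and whole reads were recovered for 23790 genes (100%, tolerance 0.02 reads), 20606918 to 26839250 per untreated library.

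KO and WT were compared with limma (version 3.58.1, R 4.3.3) on log2(RPKM + 1), its variance trend switched on, for genes with 1 RPKM or more in at least 3 libraries. The P values were adjusted by Benjamini-Hochberg over all genes tested, and 0.05 was the threshold. The difference of changes between DSS and untreated was an interaction over 12 libraries. The fit was tested on simulated data. Lists were described by counts and medians, with no set test. Positions and 3′ UTRs come from GENCODE vM21 (GRCm38), in which 10947 of the 11072 tested symbols were found, and 10633 tested genes had a 3′ UTR. Genes were named by a rule: AA467197, Ndufa4 and Ndufa4l2, every gene called in any setting, the 10 smallest p in each direction, the 10 largest within-group SDs at 10 RPKM or more, tested genes within 250 kb, the 10 highest 8mer genes and 8mer genes with p under 0.05, and up to 4 members of each list by p. Other list members were chosen after their values were seen, as were Egr1, Sgk1 and Isg15. Gene models were left out, and a few other genes that the rule names go unreported. The rule and lists were chosen with earlier results of these data known.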

Additional observations from a re-analysis of the deposited data

Results flagged for a closer look

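For the 9 named genes given here the KO against WT change differed between DSS and untreated mice in the interaction over 12 libraries. In each, the limma adjusted p was 0.0331 to 0.0479, and the call was kept in 7 to 17 of 23 or 24 other settings. Mgat4c had a log2 fold change of 0.97 under DSS and −0.39 untreated, a difference of 1.36 (SE 0.21). Slc30a4, the zinc transporter near the locus, had 0.38 and −0.37, a difference of 0.74 (SE 0.12). Zfp758 had 0.26 and −0.85, a difference of 1.10 (SE 0.22). In all 9 genes the sign under DSS was opposite to that in untreated mice, but they were picked for a large difference, which favours opposite signs. Mgat4c, Slc30a4, Zfp758 and Nipal1 were also named for their small p in untreated mice, so the same values enter the pick and the difference. Over all genes the difference was called for 158 of 11306 (1.4%), a count as low as 1 when a single library was left out.

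The magnesium transporter gene Nipal1 had 0.31 under DSS and −0.36 untreated, a difference of 0.68 (SE 0.14). C1qa, a complement gene of macrophages, had 1.71 and −0.20, a difference of 1.91 (SE 0.42). Bnip3l, a mitophagy receptor, had 0.47 and −0.29, a difference of 0.76 (SE 0.16). Dnajb9, a chaperone of the endoplasmic reticulum, had 0.49 and −0.15, a difference of 0.64 (SE 0.14).

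Of these 9 genes, 2 went the other way. Hoxa13, a position factor of the hindgut, had −0.82 under DSS and 0.22 untreated, a difference of −1.04 (SE 0.18). Scnn1a had −0.62 and 0.22, a difference of −0.85 (SE 0.13). Each gene lost its call in some setting, with adjusted p-values of up to 0.0907 for Mgat4c, Slc30a4, Scnn1a and Hoxa13 and up to 0.126 for Dnajb9.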

How the results depend on the processing

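Across 19 other settings AA467197 kept its call, with log2 fold changes of −6.53 to −6.19, and Ndufa4 kept its direction at 1.38 to 1.55. Ndufa4 lost its call, at 1.46, with no filter on low values (adjusted p = 0.0904) and with all 12 libraries sharing the spread (adjusted p = 0.0555), so that 1 gene was called in each of these. Leaving out a library gave 2 to 6 called genes. The intervals within 2-fold numbered 17684 with no filter and 10775 to 10833 without a library. Having no filter adds low genes, whose changes the log2(RPKM + 1) scale understates. The interaction gave 4 calls with no filter, 550 with the length trend taken out and 1 to 433 without a library, and the cause was not tested. Of 3522 values of other named genes, 3515 kept their side of the threshold, 7 passed it and 0 called values reversed. Of 947 medians of lists and match types, 28 moved by more than 1 SD, and a few lists had no gene left with the filter at 5 RPKM. No paired analysis was possible because the KO and WT untreated libraries share only the replicate number 2. Groups of 3 limit precision, and on the log2(RPKM + 1) scale 142 genes could differ by 2-fold or more. Low genes outside these 142 could too, because that scale understates their changes.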

Other observations

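Lists outside the themes above had medians near 0, with 0 members called. Cholesterol synthesis genes were below 0 in 19 of 23 (median −0.06), with 2 below WT without overlap, against 7.68% of all genes. These were Hsd17b7 (9.18, 8.5 and 8.65 RPKM in KO, 9.81, 13 and 10.7 RPKM in WT) and Idi1 (−0.27). Position genes of the Hox clusters were above 0 in 8 of 13 (median 0.06), and Hoxb13, the most distal, had 216, 160 and 161 RPKM in KO and 200, 140 and 90 RPKM in WT (0.38). Circadian clock genes were split 8 and 8 (median −0.01), with Dbp at 0.36, Nr1d2 at −0.23 and Npas2 at −0.30. Unfolded protein response genes were above 0 in 11 of 20 (median 0.01), 0 without overlap, against 16% of all genes. Cell death genes were above 0 in 15 of 26 (median 0.03). Mlkl, the effector of necroptosis, had 14.5, 16 and 18.6 RPKM in KO and 13.1, 12.6 and 13.7 RPKM in WT (0.29), and Ripk3, its activating kinase, was at 0.22, both without overlap. Junction genes were above 0 in 9 of 22 (median −0.04), where Cldn4 was high in WT replicate 1 alone, with 26.6, 27.3 and 17.4 RPKM in KO and 61.7, 26.2 and 28.3 RPKM in WT (−0.60), against −0.21 without that library.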
